A study of Rattus norvegicus with 6 samples.

Results

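Messenger RNA of 9 complement genes was examined in the corneal epithelium of diabetic and normal rats. The genes were the components *C3*, *Cfb*, *Cfd*, *C1r* and *C1s* and the regulators *Serping1*, *Cd46*, *Cd55* and *Cd59*, chosen by name out of 61453 loci in each table. Where several loci carried a name, the protein coding locus of highest mean level was used, and all 9 genes had 1 such locus. The libraries came from male Brown Norway rats of 150 to 200 g at the start. The diabetic group of 3 libraries had received a single intraperitoneal injection of streptozocin (STZ, a toxin of the insulin-producing cells) at 50 mg/kg and had glucose readings above 16.67 mmol/l, and the normal group of 3 libraries had received citrate buffer. Both groups were sampled at 16 weeks, and the epithelium was scraped off the excised cornea with a blade. Streptozocin acts on the whole animal, so the model is one of insulin lack. The paper names 3 diabetic rats and 3 normal groups for the sequencing, and the library titles number the rats within each group. Each group had more corneas than libraries, and the sources used here do not say how the corneas were combined. The p-values therefore measure only the spread between these libraries, which may be technical.

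Complement is a cascade of plasma and tissue proteins that marks surfaces for uptake and opens pores in membranes. It is started by recognition proteins with the proteases C1r and C1s, or by the alternative loop of C3, factor B and factor D, and all routes meet at C3. The cells of the body are kept from attack by soluble inhibitors such as C1 inhibitor and by membrane regulators such as CD46, CD55 and CD59. The surface of the eye is known for carrying such regulators on its epithelium.

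Libraries held 62288901 to 87040253 counts. The scraped tissue carried the defining transcripts of corneal epithelium: *Aldh3a1*, an abundant corneal enzyme, lay between 9143 and 10326 FPKM (a level scaled to the length of the locus and the size of the library) and *Krt12*, the corneal keratin, between 3660 and 4455 FPKM. Transcripts of neighbouring tissues were also present. The summed level of 13 keratocyte markers (the cells of the stroma) ran from 956 to 1244 FPKM in normal and from 922 to 1096 FPKM in diabetic libraries. For 12 lens markers it ran from 113 to 380 FPKM in normal libraries and was 154, 1322 and 4.10 FPKM in diabetic replicates 1, 2 and 3, so diabetic replicates 2 and 3 lay at the opposite ends. The sum of 12 monocyte and macrophage markers was 35.7 to 40.3 FPKM and 38.0 to 47.4 FPKM in the same order of groups. It includes a locus joined with a gene outside the list, and 6 of the 12 markers had a mean under 0.5 FPKM. Transcripts of other leukocytes were scarce: all 8 T cell markers and 8 of 9 neutrophil markers had a mean under 0.5 FPKM, and *Cd3d*, *Cd2*, *Elane* and *Ltf* had no counts at all. The neutrophil sum was 1.496 to 2.16 FPKM in normal and 1.98 to 3.36 FPKM in diabetic libraries. No gene of these marker lists passed the test below with limma, edgeR or DESeq2. An unadjusted limma p under 0.05 was reached by 2 of 13 keratocyte markers, 1 higher and 1 lower in diabetic libraries. So did 1 of 6 macrophage and 1 of 10 corneal epithelial markers tested, both higher. Of all loci tested, 4.8% reached it. The paper, with limma at the same thresholds, lists some keratocyte and macrophage markers as higher in diabetic rats, whereas none passed here. The macrophage marker counted above is among those in the paper and was higher here too, without passing. In bulk RNA, fewer cells of a type and less RNA per cell cannot be told apart.

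The promoters of *C3*, *Cfd* and *Cd55* are shown first because these 3 genes varied most between the 6 libraries. RefSeq promoters were found for 5 of the 9 genes (also *Cd46* and *C1r*). Each line gives the 250 bases before the gene start in the build GRCr8, 5′ to 3′ on the strand of the gene (minus in all 3). Capitals mark matches, on either strand, to the GC box (GGGCGG), the C/EBP motif (TTNNGNAA) and the NF-kappa B motif (GGGA and CC with any 4 bases between).
*C3* (chr9:2201340-2201589, minus strand): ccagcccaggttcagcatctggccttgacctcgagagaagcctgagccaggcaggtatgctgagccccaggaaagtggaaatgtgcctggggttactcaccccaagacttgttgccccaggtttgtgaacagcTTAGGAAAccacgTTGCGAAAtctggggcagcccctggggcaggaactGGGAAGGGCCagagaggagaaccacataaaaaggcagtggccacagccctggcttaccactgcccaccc
*Cfd* (chr7:10465497-10465746, minus strand): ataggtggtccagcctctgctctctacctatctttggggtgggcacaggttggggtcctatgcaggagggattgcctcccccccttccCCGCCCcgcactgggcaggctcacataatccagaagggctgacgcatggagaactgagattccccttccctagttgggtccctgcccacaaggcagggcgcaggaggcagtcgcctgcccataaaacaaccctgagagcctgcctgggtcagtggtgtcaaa
*Cd55* (chr13:44438102-44438351, minus strand): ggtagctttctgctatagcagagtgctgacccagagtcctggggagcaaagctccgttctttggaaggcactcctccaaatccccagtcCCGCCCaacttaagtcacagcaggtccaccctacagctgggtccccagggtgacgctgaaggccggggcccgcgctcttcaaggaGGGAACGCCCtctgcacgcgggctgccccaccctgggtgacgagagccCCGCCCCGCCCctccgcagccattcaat
The *C3* promoter held 2 matches to the C/EBP motif, starting 117 and 104 bases before the gene start, and 1 to the NF-kappa B motif at 69 bases. Of 33469 promoters of the same length 37.2% held the C/EBP motif and 16.4% the NF-kappa B motif. In the *Cd55* promoter 3 GC boxes and 1 NF-kappa B match were found, and in the *Cfd* promoter 1 GC box; 30.5% of all promoters held a GC box. None of the 5 promoters held TATAAA (12.9% of all) or the STAT motif TTCNNNGAA (7.67% of all), and CCAAT (34% of all) was found once, in *Cd46*. *C1r* held 2 C/EBP matches. The matches overlap each other only in *Cd55*, where a pair of GC boxes shares a base. They are letters in a window and no measure of binding.

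The levels of the 9 genes spanned 3 orders of magnitude, with the regulator gene *Cd59* far above the rest. FPKM is scaled by locus length, so comparing it between genes rests on the lengths used. The values implied a length of 10281 bases for *Cd55*, against 2157 for *Serping1* and 3163 for *C1r*. In CPM (counts scaled to library size, not length), *Cd55* ran from 21.7 to 71.8 and *Serping1* from 14.1 to 33.6. The place of *Cd55* in the order below therefore depends on its length. *Cd59*, the membrane protein that keeps the attack pore from being completed, stood at 202 FPKM (mean of the 6 libraries) and took 82.1% to 91.7% of the summed FPKM of the 9 genes in a library. *Serping1*, which encodes C1 inhibitor, followed with 11.9 FPKM, and then the protease gene *C1r* (8.88 FPKM), *Cd55* (4.80 FPKM), whose product takes apart the C3-cleaving enzyme, and *C1s* (4.45 FPKM), the partner of C1r. *Cfb* (1.198 FPKM), *Cd46* (0.682 FPKM), *C3* (0.497 FPKM) and *Cfd* (0.201 FPKM) were low.

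Neighbours in this order had ranges without overlap at 2 places. *Cd59* lay above *Serping1* with no overlap of their ranges over the 6 libraries, and *C1s* above *Cfb* likewise, although the *C1s* locus spans other loci and the *Cfb* locus also holds *C2*, which makes their levels less certain. *Cfb* was above *Cd46* in 6 of 6 libraries, although the ranges overlapped. *Serping1* was above *C1r*, and *C1r* above *Cd55*, in 5 of 6 libraries each. *Cd55* and *C1s*, and likewise *C3* and *Cfd*, could not be ordered: each was the higher one in 3 of 6 libraries. *Cd46* exceeded *C3* in 5 of 6, the exception being diabetic replicate 2.

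**Figure D1:**
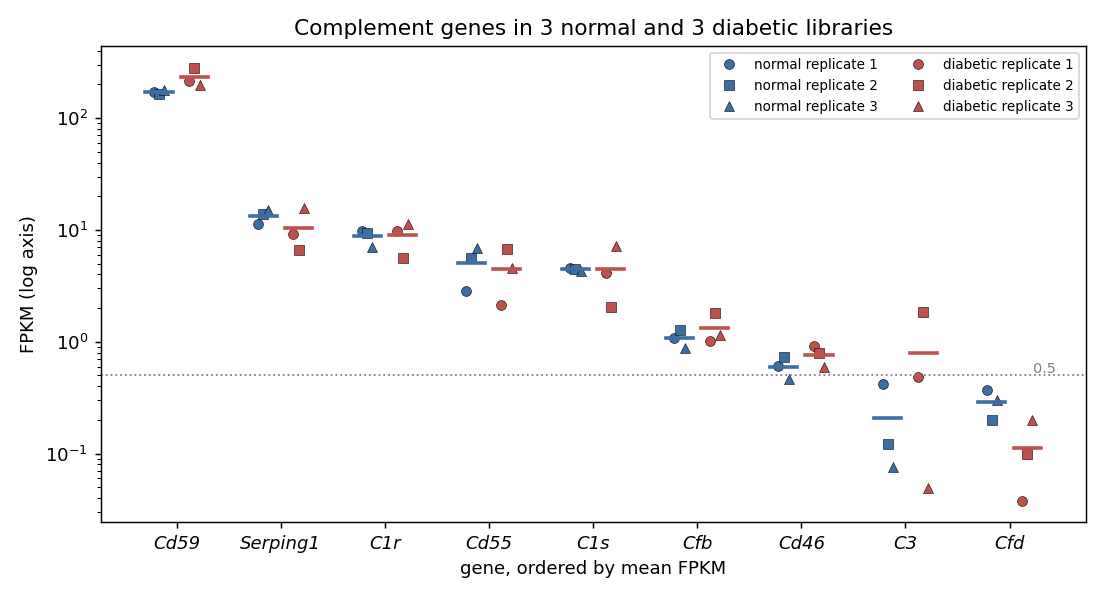
FPKM (log axis) of the 9 complement genes in each library, ordered by mean; bars are group means and the dotted line is the mean of 0.5 FPKM below which a locus was not tested. The 3 diabetic libraries of *Cd59* lie above the 3 normal ones, while *C3* runs from 0.0497 to 1.83 FPKM within the diabetic group.

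Diabetic and normal libraries were then compared to see whether complement transcripts differ with diabetes. The 7 genes with a mean of at least 0.5 FPKM were tested with limma on quantile-normalized log2(FPKM + 1), together with all 42551 loci of that level, and *C3* and *Cfd* lay under this filter. Passing needed a fold change over 1.2 and a p under 0.05 after Benjamini-Hochberg adjustment over all loci. None of the 7 passed with limma, edgeR or DESeq2. Over all loci 0.0259% passed with limma, 0.0141% with edgeR and 0.233% with DESeq2. An unadjusted limma p under 0.05 was reached by 4.8% of all loci (2.44% with diabetic libraries higher and 2.35% lower). Of the 7 genes 1 reached it (*Cd59*, higher), and it was the same gene with edgeR and with DESeq2. Of the 42551 loci 1760 had an unadjusted p under 0.05 with edgeR and 2125 with DESeq2. Positive log2 fold changes were seen for 4 genes and negative ones for 3, with a median of 0.014, beside 49% positive and a median of −0.0049 over all loci. In FPKM the groups did not overlap for 1 of the 7, against 9.66% of all loci tested (3.94% with diabetic libraries higher and 5.72% lower). Among all loci with a count this share was 9.18% (5.37% lower), and without the filter 4.55% had an unadjusted limma p under 0.05, which neither *C3* nor *Cfd* reached.

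*Cd59* was the member whose groups were apart. Its level was 172, 164 and 178 FPKM in normal replicates 1, 2 and 3 and 215, 283 and 199 FPKM in diabetic replicates 1, 2 and 3. The diabetic libraries were all higher, at 232 ± 44.9 against 171 ± 7.25 FPKM (mean ± SD, n = 3 each), a 1.36-fold ratio of the means, and the spread was wider among them. The locus, at 94010475 to 94028621 on chromosome 3 of rn6, overlaps no other locus, and each library gave it 21260 to 31573 counts, so counting error was small. The log2 fold change was 0.40 (SE 0.15), with an unadjusted limma p of 0.0284 and an adjusted p of 0.953. With edgeR on the counts it was 0.47 (adjusted p 0.991) and with DESeq2 0.47 (adjusted p 0.684). The exact permutation test of the FPKM values gave p = 0.10 (two-sided), the smallest value that 3 against 3 libraries allow. The log2 fold change stayed positive with each library left out, from 0.27 without diabetic replicate 2 to 0.47 without diabetic replicate 1. Its highest value lay in diabetic replicate 2, the library richest in lens markers (summed level 1322 FPKM). Diabetic replicate 3, the poorest in them (4.10 FPKM), had the lowest diabetic value of *Cd59*, which still lay above all normal values. Normal replicate 1, the normal library richest in lens markers (380 FPKM), had less *Cd59* than normal replicate 3 (153 FPKM of lens markers). The part of lens transcripts in the *Cd59* level was not tested.

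*Cd55* showed no such separation. The values were 2.82, 5.59 and 6.93 FPKM in normal and 2.12, 6.75 and 4.59 FPKM in diabetic replicates 1, 2 and 3. The lowest value of either group came from its replicate 1, and the groups overlapped throughout, with means of 5.11 ± 2.10 and 4.49 ± 2.31 FPKM (SD, n = 3 each). The log2 fold change of −0.17 (SE 0.37, limma adjusted p 0.979) was smaller than its error, and it turned to 0.18 without diabetic replicate 1 and to 0.041 without normal replicate 3. The ratio of *Cd59* to *Cd55* in FPKM ran from 25.8 to 60.9 in normal and from 42.0 to 101 in diabetic libraries. Its size depends on the length used for the *Cd55* locus.

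*Cd46*, the cofactor for cleavage of C3b, was close to the limit of what these libraries show. It had 65, 76 and 52 counts in normal and 108, 68 and 53 counts in diabetic replicates, that is 0.604, 0.728 and 0.464 FPKM and 0.909, 0.792 and 0.594 FPKM. Group means were 0.599 ± 0.132 and 0.765 ± 0.159 FPKM (SD, n = 3 each), and the groups overlapped. Scaled to library size, the highest library of each group had 95% exact Poisson intervals that overlapped, from 1.02 to 1.498 CPM (counts scaled to library size) in diabetic replicate 1 and from 0.783 to 1.24 CPM in normal replicate 2. The log2 fold change was 0.17 (SE 0.24, limma adjusted p 0.968) on the log2(FPKM + 1) scale, where the added 1 shrinks differences of genes this low. It was 0.37 at a pseudocount of 0.1, 0.39 with edgeR (adjusted p 0.991) and 0.40 with DESeq2 on the counts. *Cd46* and *Cd55* lie on the same chromosome, 13, at 113787349 to 113817995 and at 47125249 to 47154290 (rn6).

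C1r and C1s form the protease unit that cleaves C4 and C2, and C1 inhibitor, the product of *Serping1*, takes the pair apart. Transcripts of all 3 genes had their lowest level in diabetic replicate 2 and their highest in diabetic replicate 3. *C1r* stood at 9.86, 9.47 and 6.99 FPKM in normal and at 9.88, 5.66 and 11.4 FPKM in diabetic replicates 1, 2 and 3. *C1s* stood at 4.55, 4.47 and 4.33 FPKM and at 4.14, 2.04 and 7.17 FPKM in the same order. For *C1s* the normal libraries had an SD of 0.115 FPKM around their mean of 4.45, while the diabetic ones, with the same mean of 4.45, had an SD of 2.58 FPKM. *Serping1* stood at 11.2, 14.0 and 15.0 FPKM in normal and at 9.11, 6.55 and 15.6 FPKM in diabetic replicates, with means of 13.4 ± 1.95 and 10.4 ± 4.64 FPKM (SD, n = 3 each), and 2 of the 3 diabetic values lay under all normal ones.

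The group means of the 3 genes therefore hid a wide spread between diabetic libraries. The log2 fold changes were 0.014 for *C1r* (SE 0.24), −0.089 for *C1s* (SE 0.31) and −0.38 for *Serping1* (SE 0.27), and the limma adjusted p values lay between 0.953 and 0.998. The sign for *C1r* turned without quantile normalization (−0.0055), that for *C1s* turned on the counts (0.010 with edgeR), and both turned with some libraries left out. Without diabetic replicate 2 that of *C1s* was 0.27 and that of *Serping1* −0.13. Without diabetic replicate 3 they were −0.44 and −0.70, and *C1r* came to −0.17. The ratio of *C1r* to *C1s* in FPKM varied less than either gene did in the diabetic group, from 1.62 to 2.17 in normal and from 1.59 to 2.77 in diabetic libraries.

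The keratocyte markers of highest level were *Col1a1*, a collagen chain, and *Kera*, a proteoglycan of the stroma. *Kera* was at 258, 284 and 284 FPKM in normal and 241, 162 and 278 FPKM in diabetic replicates, and was also lowest in diabetic replicate 2. *Col1a1* was not: it stood at 349 FPKM there, at 309 and 253 FPKM in diabetic replicates 1 and 3, and at 489, 487 and 204 FPKM in normal replicates. The mean log2 deviation of the 13 keratocyte markers from their mean over all libraries was 0.12 in diabetic replicate 2, 0.22 in diabetic replicate 3 and −0.30 in diabetic replicate 1, and 5 of these markers had a higher and 8 a lower fitted mean in diabetic libraries. Lens markers deviated by 2.64 and −2.27 in diabetic replicates 2 and 3, and immediate early and stress genes, which respond to tissue handling, by −0.90 and −0.43. The part of these markers in the spread of the 3 genes was not tested. *C1r* and *C1s* are neighbours on chromosome 4 of rn6 on opposite strands, and the *C1s* locus, drawn over 427274 bases from 156728356 to 157155629, spans *C1r* (157125998 to 157136829) and 10 further loci, so reads at *C1s* are less certain.

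**Figure D2:**
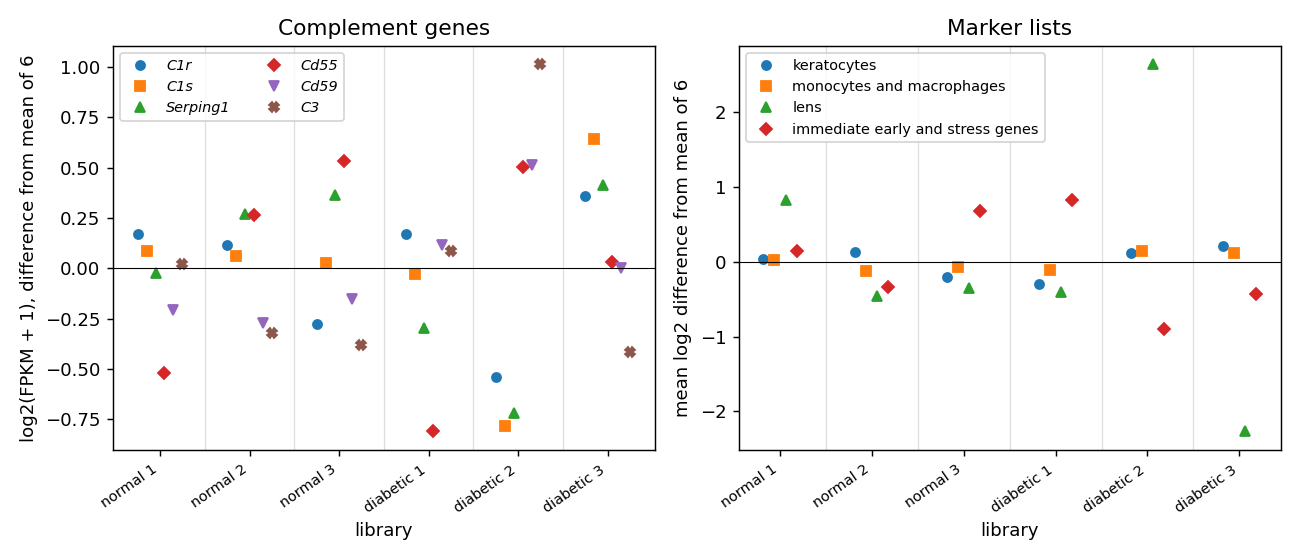
Left, log2(FPKM + 1) of 6 complement genes in each library as the difference from the mean of the 6 libraries; right, the mean log2 difference of 4 marker lists, on an axis of another range. The points of *C1r*, *C1s* and *Serping1* are at the bottom in diabetic replicate 2 and at the top in diabetic replicate 3. *C3* peaks in diabetic replicate 2. Lens markers stand at 2.64 in diabetic replicate 2 and at −2.27 in diabetic replicate 3.

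*C3*, the protein on which every route of activation converges, was the most variable of the 9 genes. It had 198, 56 and 37 counts in normal and 250, 674 and 19 counts in diabetic replicates 1, 2 and 3, or 0.422, 0.123 and 0.0764 FPKM and 0.485, 1.83 and 0.0497 FPKM. The highest and the lowest library were both diabetic, and they differed 36.8-fold in FPKM. The 95% exact Poisson intervals, which cover counting error only, were 10.02 to 11.7 CPM in diabetic replicate 2 and 0.178 to 0.462 CPM in diabetic replicate 3. The coefficient of variation over the 6 libraries was 136%, above that of 99.7% of the 11289 protein coding loci of single name that were tested, all of which had a higher mean level than *C3*. Group means were 0.207 ± 0.188 and 0.788 ± 0.927 FPKM (SD, n = 3 each), a difference smaller than the SD of the diabetic group.

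Since *C3* lay just under the level filter, its fold change was taken from the same fit without the filter. It was 0.48 (SE 0.36, limma adjusted p 0.941), and 0.082 without diabetic replicate 2 or 0.80 without diabetic replicate 3. With edgeR on unfiltered counts it was 1.97 (adjusted p 0.954). The value therefore rested on diabetic replicate 2, whose lens markers were the highest; the part of those transcripts in the *C3* level was not tested. The lens marker sums were 380, 113 and 153 FPKM in normal and 154, 1322 and 4.10 FPKM in diabetic replicates 1, 2 and 3. The libraries highest and lowest in *C3* were also highest and lowest in lens markers. Between these ends the order differed. Diabetic replicate 1 had more *C3* (0.485 FPKM) than normal replicate 1 (0.422 FPKM) but a lower lens marker sum.

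*Cfb* and *Cfd* encode factor B, which binds C3b, and factor D, the protease that cleaves it. *Cfb* shares its locus with *C2*, its close relative in the classical route, under the joined name Cfb;C2 (4536203 to 4561152 on chromosome 20 of rn6), so these genes cannot be told apart. The joint level was 1.07, 1.28 and 0.870 FPKM in normal and 1.01, 1.81 and 1.15 FPKM in diabetic replicates 1, 2 and 3. It was highest in diabetic replicate 2, as for *C3*, and the other 5 libraries lay between 0.870 and 1.28 FPKM. The log2 fold change of 0.16 (SE 0.20, limma adjusted p 0.966) was 0.0057 without diabetic replicate 2. It was 0.27 at a pseudocount of 0.1, 0.33 with edgeR (adjusted p 0.991) and 0.34 with DESeq2.

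*Cfd* had the fewest counts of the 9 genes. There were 34, 18 and 29 counts in normal and 4, 8 and 16 in diabetic replicates 1, 2 and 3. In FPKM these were 0.368, 0.200 and 0.301 against 0.0379, 0.0996 and 0.200, with means of 0.290 ± 0.0847 and 0.113 ± 0.0819 FPKM (SD, n = 3 each). The diabetic libraries lay lower but for a touch at 0.200 FPKM, where diabetic replicate 3 met normal replicate 2. Counting error was wide: 0.0125 to 0.118 CPM in diabetic replicate 1 and 0.139 to 0.372 CPM in normal replicate 2 (95% exact Poisson intervals, which cover counting error only). Without the filter the log2 fold change was −0.20 (SE 0.086, unadjusted limma p 0.0563, adjusted p 0.941) and stayed between −0.26 and −0.15 with each library left out, and edgeR on counts gave −1.25 (adjusted p 0.954). The *Cfd* locus (12634216 to 12635943 on chromosome 7) lies within that of *Arhgap45* on the same strand, so its few counts cannot be told apart from those of *Arhgap45* with certainty.

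The rest of the cascade was read from a list of 51 further gene names, of which 47 had a locus apart from the 9 genes. No locus carried the name *Mbl2*, *Hc* or *Csmd3*, and *C2* is the joined locus above. The search was by name, so a missing name does not show that the gene was not measured under another symbol. Only 14 reached 0.5 FPKM, and 8 had no counts in any library, which allows up to 0.0345 to 0.0482 CPM (3 counts of a library). None of the 14 passed with limma, edgeR or DESeq2, and none had an unadjusted limma p under 0.05. With edgeR and with DESeq2 1 (*Clu*) had an unadjusted p under 0.05, beside 1760 and 2125 of all 42551 loci. Positive log2 fold changes were counted for 6 and negative ones for 8, with a median of −0.031. Groups did not overlap in FPKM for 1 higher and 1 lower gene, or 2 of 14, against 9.66% of all loci tested.

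Among recognition proteins and their proteases, *Masp1*, a protease of the lectin route, was the highest at 8.35, 5.78 and 2.68 FPKM in normal and 3.32, 3.86 and 3.96 FPKM in diabetic replicates. Its groups overlapped (log2 fold change −0.37, SE 0.31, limma adjusted p 0.953). *C1qc*, a chain of C1q, the recognition part of the C1 complex, had means of 1.205 and 0.828 FPKM, and 9 of the 11 genes found in this role lay under the filter. Of the later components, *Cfp*, the stabilizer of the alternative convertase, was at 1.85 and 1.84 FPKM in the 2 groups, and *C8g*, a chain of the attack complex, at 2.23 and 2.18 FPKM. The other 5 attack components lay under the filter, with *C8b* and *C9* at no counts.

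Regulators outside the 9 genes held the 2 cases without overlap. *Clu*, which encodes clusterin, an inhibitor of pore assembly and a chaperone, was at 5.40, 5.07 and 5.19 FPKM in normal and 5.47, 32.2 and 10.7 FPKM in diabetic replicates 1, 2 and 3. Diabetic replicate 1 lay just above the normal libraries, and the other diabetic libraries lay well above them (log2 fold change 1.14, SE 0.51, limma adjusted p 0.953). Leaving out diabetic replicate 2 gave 0.50 (limma adjusted p 1.0), and leaving out diabetic replicate 1 gave 1.67 (limma adjusted p 0.43). Lens markers were highest in diabetic replicate 2 and lowest in diabetic replicate 3, which had the highest and the next highest *Clu* level, and the part of lens transcripts in the *Clu* level was not tested. *Cr1l*, the rodent membrane regulator also called Crry, was even across libraries, with 16.1, 15.8 and 16.4 FPKM in normal and 15.3, 14.7 and 14.8 FPKM in diabetic replicates. All diabetic values were lower (log2 fold change −0.080, SE 0.084, limma adjusted p 0.962). At 15.5 FPKM it exceeded *Cd55* and *Cd46* in every library in FPKM and stayed far below *Cd59*. In CPM, which takes no account of locus length, *Cd55* was above *Cr1l* in diabetic replicate 2 (69.3 against 63.6). It was also just above *Cr1l* in normal replicate 3 (71.8 against 71.7).

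Receptors for complement fragments were scarce. *C1qbp*, a binding protein for C1q heads that also sits in mitochondria, had 7.35 and 6.95 FPKM in normal and diabetic libraries, and *C5ar2* 0.683 and 0.724 FPKM. The other 8 receptor genes, among them *C3ar1* and *C5ar1*, the receptors of the C3a and C5a fragments, lay under the filter.

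**Figure D3:**
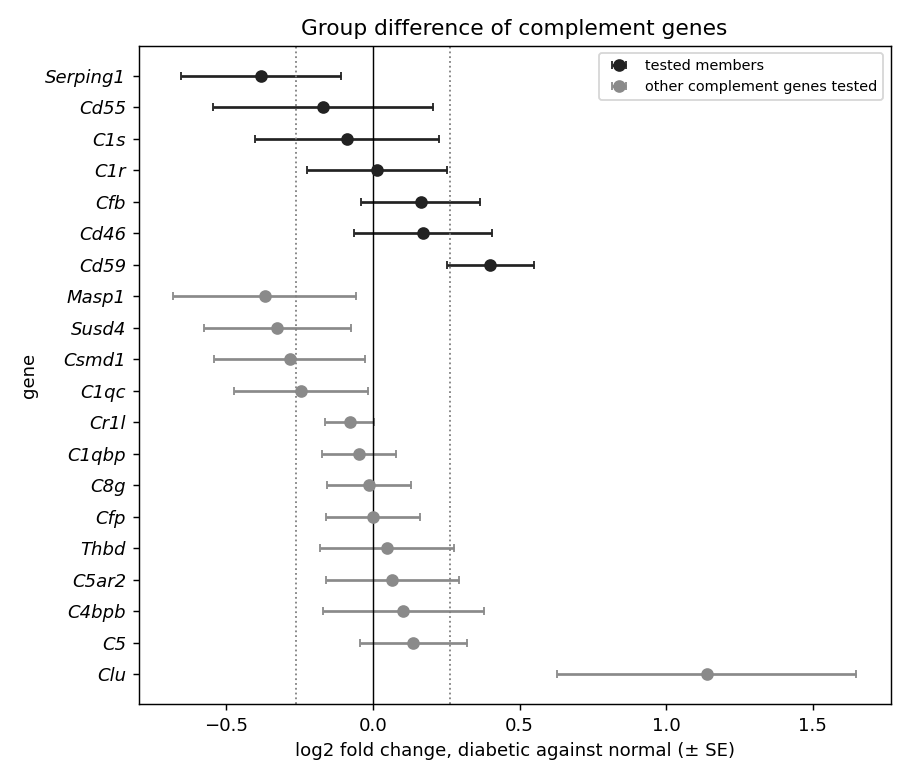
Limma log2 fold change (diabetic against normal, ± SE) of the 7 members tested and 13 of the 14 other complement genes tested; dotted lines mark a fold of 1.2 and none of the genes passed the adjusted test. *Cd59* (0.40) and *Serping1* (−0.38) are the ends of the 7 members, and *Clu* (1.14) has the widest error of those drawn.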

How the data were processed

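Corneal epithelial RNA of 3 normal and 3 diabetic rat libraries was analysed. The submitters' processing notes name cutadapt, FastQC, Bowtie2 and the build rn6. The sources used here give neither their versions nor the counting program. The authors deposited raw counts and FPKM for 61453 loci, with 0.0001 FPKM in place of 0, which was set to 0. The study's methods name a log2 transform, the affy package for normalization, and limma. Here log2(FPKM + 1) of the 42551 loci with a mean of at least 0.5 FPKM was quantile-normalized and tested with limma 3.58.1 (R 4.3.3, eBayes with trend). The deposited counts were tested with edgeR 4.0.16 (quasi-likelihood) and DESeq2 1.42.0. The scripts were tested on simulated data. Alternatives were other normalizations, pseudocounts, filters, variance priors, weights, a replicate block and leaving out each library; the block with edgeR, and leaving libraries out without the filter, were chosen after seeing the data. The genes and lists were chosen with earlier results of these data known. The rule for named genes took the 9 members, the highest gene of each role list, genes of these lists without overlap or with an unadjusted limma p under 0.05, the 5 loci most like *C3*, and the 2 highest markers of a list. *C1qc*, *C5ar2*, *C5ar1*, *C3ar1* and genes with no counts lie outside this rule and were named after their values were seen. The factor *F5*, counted among the soluble regulators, belongs to coagulation. The values of 1 other complement gene are not reported here. Promoters are from RefSeq (GRCr8).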

Additional observations from a re-analysis of the deposited data

How the results depend on the processing

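None of the 7 tested complement members passed under the 22 alternatives run, and none of the 14 other complement genes under 21. Over all loci 11 passed with limma, 6 with edgeR (with TMM, with RLE size factors and without a filter) and 99 with DESeq2. The count was 6 at a pseudocount of 0.1, 3 without the filter, 3 for protein coding loci only and 3 to 10 with 1 library left out, the fewest without diabetic replicate 1. Same-numbered libraries shared only a number (correlation of deviations −0.0092, 0.025 and 0.032). With the replicate number as a block 1 locus passed with limma and 0 with edgeR (1550 at an unadjusted p under 0.05), and no member did. The median log2 fold change of the tested members, 0.014, ran from −0.17 to 0.14 with 1 library left out. Of 161 alternative values for single members 147 kept their direction. *Cd46* turned to −0.036 at its fragment of highest FPKM. *Cd55* turned to 0.066 with library weights and ran from −0.48 to 0.18 with 1 library left out. *C1r* turned to −0.0055 without quantile normalization and −0.14 with weights, and ran from −0.17 to 0.27. *C1s* turned to 0.010 with edgeR, 0.015 with DESeq2 or RLE size factors and 0.019 without a filter on counts, and ran from −0.44 to 0.27. The cause was not tested. The low counts of *Cfd* (4 to 34) and *Cd46* (52 to 108) limit what depth can show.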

Other observations

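Genes known to induce complement genes or to accompany them in the acute phase response were read from a list of 22, of which 20 were found and 15 tested. None passed with limma, edgeR or DESeq2. Of the 15, 1 (*Cebpd*) had an unadjusted p under 0.05 with each of them, beside 4.8% of all loci with limma. *Cebpd*, a transcription factor of the C/EBP family, was at 2.99, 2.93 and 2.66 FPKM in normal and 7.73, 5.44 and 3.35 FPKM in diabetic replicates 1, 2 and 3. All diabetic values were higher, as for 3.94% of all loci tested. The log2 fold change was 0.70 (SE 0.24, limma adjusted p 0.953). With 1 library left out it ran from 0.46 without diabetic replicate 1 to 0.98 without diabetic replicate 3. *Tnf*, the cytokine, was under the filter, with 0, 41 and 7 counts in normal and 135, 90 and 41 in diabetic replicates, and its FPKM groups did not overlap, which 9.18% of loci with a count showed. *Lcn2*, an iron-binding acute phase protein and the highest of the list, ran from 53.6 to 128 FPKM in normal and from 43.9 to 170 FPKM in diabetic libraries. *Il6* and *Ifng* had no counts. The paper, with limma at the same thresholds, lists some genes of this list as higher in diabetic rats, and 1 of them also by quantitative PCR.

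The 5 protein coding loci whose pattern over the 6 libraries was most like that of *C3*, among 20578 compared, were *Noxo1*, *Atp13a4*, *Paqr4*, *Fgd6* and *Slc6a14*. Likeness was the root mean square difference of centred log2(FPKM + 1), from 0.091 for *Noxo1* to 0.16 for *Slc6a14*. Each was highest in diabetic replicate 2: *Noxo1* stood at 3.56 FPKM there and between 0.816 and 1.79 FPKM in the other 5 libraries, and *Slc6a14*, an amino acid transporter, at 61.7 FPKM and between 20.2 and 33.0 FPKM.

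Short fragments without a transcript type carry the names of 2 members. Inside *Cd55* a fragment on the other strand (47137869 to 47139048 on chromosome 13 of rn6) had 28, 19 and 120 counts in normal and 31, 87 and 81 in diabetic replicates. Inside *Cd46* there are 3 fragments without a strand. That from 113813410 to 113813704 had the highest level, 0.824 to 2.43 FPKM in normal and 0.961 to 2.11 FPKM in diabetic libraries, above *Cd46* itself in each library.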
